A study of Mus musculus with 2 samples.

Results

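The chitinase-like and resistin-like genes are 9 members of 2 families of secreted proteins, Chil3, Chil4, Chil1, Chia1, Chit1 and Chid1 on the chitinase side and Retnla, Retnlb and Retn on the resistin side. They were chosen by family, with earlier results of these data known. They were taken as every gene probe of the array whose RefSeq transcript belongs to a member. This gave 10 probes, 2 for Retn and 1 for each of the other genes, among 32448 genes or unnamed transcript identifiers on the array. Each probe was printed in 1 spot.

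The study asked whether a lowered oxidative function of macrophages causes insulin resistance. Its arrays served to find factors that mouse bone marrow-derived macrophages (BMDMs) express after interleukin-4 (IL-4). Total RNA of untreated BMDMs was set on 1 single-colour Agilent array, and total RNA of BMDMs given IL-4 for 18 h on another. Per the study's methods the cells of both came from male mice of the Crif1 f/f genotype, aged 8 weeks, which carry a floxed Crif1 gene and for which no Cre recombinase is named, and were grown from marrow with macrophage colony-stimulating factor. The mice were on a C57BL/6 background. The IL-4 dose for these arrays and the number of animals behind each RNA are not given in the sources used here, and with 1 array per condition no difference between conditions could be tested.

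Chitinases of glycoside hydrolase family 18 cut chitin, the polymer of fungal walls, insect cuticle and worm eggs. Chitinase-like proteins keep the fold and often the sugar-binding groove, but have lost the catalytic residue. Resistin-like proteins are small, cysteine-rich secreted proteins found in both tissue and blood. In mice, Chil3 (Ym1) and Retnla (FIZZ1 or RELMα) are long used as markers of macrophages activated by IL-4 or IL-13 through STAT6, and both are abundant in worm infection and allergic airways.

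The signals below are background-subtracted spot intensities in the arbitrary units of the scanner. A difference is the log2 intensity on the IL-4 array minus that on the untreated array, after scaling each array by its 75th percentile. The scanner software marks a spot as well above background or not, and a spot so marked is said to pass. A probe that was well above background on 1 array only gives a bound, computed against its own dim signal or the lowest passing signal of that array (29.2 untreated and 27.9 with IL-4), whichever was higher. Where its own dim signal was the higher, the value is the measured difference and sets no limit. A gene that passed on neither array is called dim on both, and no fold is given for it. The error of a difference is the median SD over spots of probes printed 10 times, taken from probes of similar brightness, and it covers the spots of these 2 arrays but not the spread between cultures.

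Of the 9 genes, 3 (Chil3, Chil4 and Chid1) were well above background on both arrays, 2 (Retnla and Retn) on the IL-4 array only, 1 (Chil1) on the untreated array only, and 3 (Chia1, Chit1 and Retnlb) on neither. Chil3, Chil4 and Retnla were at least 2-fold higher with IL-4, that is 3 of the 6 members with a signal, against 2.86% of all 19743 genes with a spot well above background. Chil1 was the 1 member at least 2-fold lower, against 4.47% of all such genes. A member seen on 1 array only enters these counts through the array where it was bright, so they describe the members and carry no test.

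**Figure D1:**
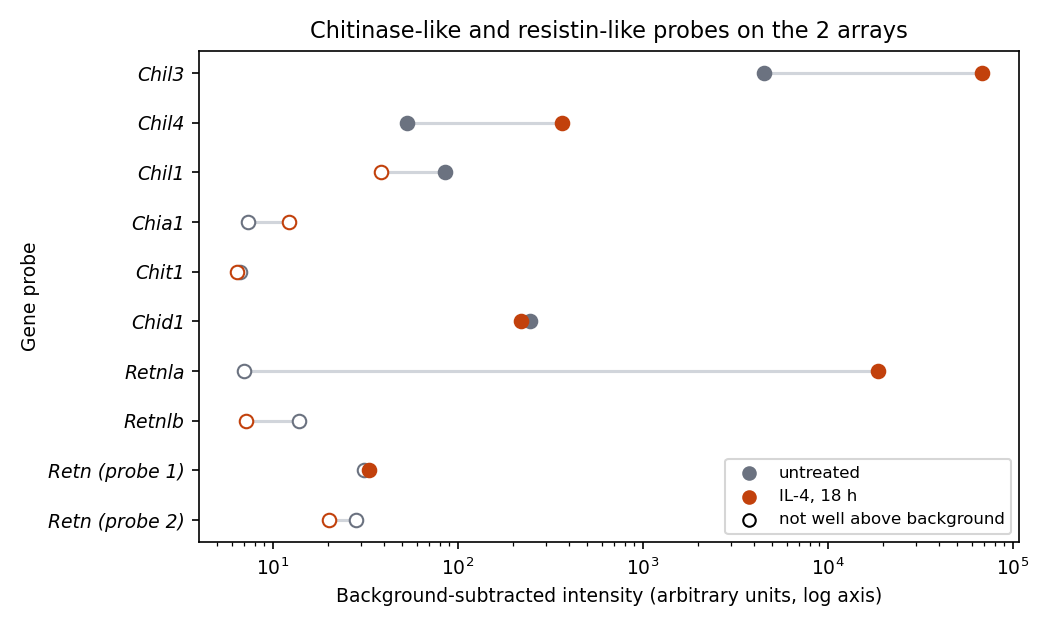
Background-subtracted intensity (log axis, arbitrary units) of the 10 member probes, with the untreated array in grey, the IL-4 array in orange, and open circles for spots not well above background. Chil3 lay at 4511 and 68526, Chil4 at 53.1 and 365, and Retnla went from an open circle at 6.99 to 18633.

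Chil3 encodes Ym1, a secreted lectin without chitinase activity that is known to form crystals in inflamed mouse airways. Its intensity was 4511 without IL-4 and 68526 with it, with a software error of 10% on each array. The probe was bright before treatment and 14.2-fold brighter with IL-4, a log2 difference of 3.83 with a spot SD of 0.046 (25 ten-spot probes). This placed Chil3 in rank 23 of 19703 genes with a difference, counted from the highest. Its rank was 10 with normexp, a background model run here with a constant of 50 added to every signal. It was 52 in the processed values of the authors, where genes dim on 1 array are not held to a bound.

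Next to Chil3 in that order stood genes of unlike roles. Gatm, which makes a creatine precursor from arginine, differed by 3.87 on the log2 scale and Ccl7, a monocyte-attracting chemokine, by 3.84. Just below Chil3 came Il13ra2, the decoy receptor of IL-13, with a bound of 3.81, and Scn3a, a sodium channel subunit, with a bound of 3.68. Gatm and Ccl7 lie within about 1 spot SD of Chil3, so its place among them is not resolved. Il13ra2 and Scn3a are placed by bounds, so their order against Chil3 is not known.

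Chil4 encodes Ym2, the closest relative of Ym1. Untreated BMDMs gave an intensity of 53.1 (software error 15.5%) and IL-4-treated BMDMs 365 (10%). Both spots were well above background, although the untreated signal was near the lowest that passes. The difference was 2.68 on the log2 scale, a 6.43-fold higher signal, with a spot SD of 0.12 (45 ten-spot probes), and Chil4 stood in rank 54. With normexp the difference was 1.56 and the rank 94, and in the processed values the rank was 172. The genes next to it were Slc7a2 (2.81), an arginine transporter, and Cd40 (2.70), a costimulatory receptor, above, and the noncoding 9330179D12Rik and the predicted gene Gm11543, with bounds of 2.65 and 2.64, below.

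Chil3 and Chil4 are near-identical genes, and how much of the signal on each probe comes from the transcript of the other was not tested, since the array files used here hold no probe sequences. Their promoters are shown because both genes were higher with IL-4 and because the windows are alike. Each line is the 250 bases before the RefSeq transcription start on build GRCm38.p6, read 5′ to 3′ on the gene's strand, with Chil3 at chr3:106167565-106167814 and Chil4 at chr3:106219480-106219729, both on the minus strand. Capitals mark matches to 3 patterns searched on both strands: TTCNNNNGAA, the spacing that STAT6 prefers, TTCNNNGAA, the spacing of other STAT factors, and TTGCNNAA, a C/EBP pattern.
Chil3: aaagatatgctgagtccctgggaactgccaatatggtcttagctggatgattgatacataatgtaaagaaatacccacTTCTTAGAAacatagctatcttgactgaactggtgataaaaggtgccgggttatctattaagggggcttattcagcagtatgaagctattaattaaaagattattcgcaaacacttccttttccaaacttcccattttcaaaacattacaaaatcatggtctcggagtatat
Chil4: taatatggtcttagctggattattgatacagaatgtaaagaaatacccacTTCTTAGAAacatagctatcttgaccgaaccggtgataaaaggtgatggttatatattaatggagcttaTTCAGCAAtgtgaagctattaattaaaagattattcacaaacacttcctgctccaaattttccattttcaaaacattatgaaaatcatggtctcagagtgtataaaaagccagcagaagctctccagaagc

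In a pairwise alignment the windows shared 201 of 221 aligned bases (91.0%, with 2 gap bases). Among the 36 pairs of promoters compared, this and the pair of Retnla with Retnlg were the most alike by alignment score, and the other 34 pairs had 49.8% to 64.3% identical bases. The match TTCTTAGAA stood in both, at 172 to 164 bases before the start of Chil3 and 200 to 192 bases before that of Chil4. Chil4 held in addition TTCAGCAA, the reverse complement of the C/EBP pattern, at 131 to 124 bases before its start. Of 32851 promoter windows of the same length, 7.02% held TTCNNNGAA, 5.85% TTCNNNNGAA and 9.56% TTGCNNAA. A match is a string of letters in a window, and no binding was measured here.

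Chil1, a chitinase-like protein made by macrophages and many other cells, went the other way. Its intensity was 85.0 in untreated BMDMs (software error 13.9%) and 38.4 after IL-4 (23.1%), where it was not well above background. Since that dim signal was above the lowest passing one, the value is the measured difference and not a limit. The signal was 2.37-fold lower with IL-4, -1.25 on the log2 scale with a spot SD of 0.25 (36 ten-spot probes). This is rank 527 counted from the lowest. The 2-fold call depends on the scaling, since the difference was -0.93 under spike-in scaling, -0.98 under quantile normalization and -0.66 under normexp. In the order of differences it stood among 1700030J22Rik, Fetub, Prdm15 and Cnbd2, all at -1.25, and the order within these 5 genes is far inside the spot SD.

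Chid1, also named stabilin-1-interacting chitinase-like protein, is a lysosomal and secreted member of the family. It read 247 without IL-4 and 220 with it, with a software error of 10.3% on each. The probe was well above background on both arrays at nearly the same level. The difference was -0.27 with a spot SD of 0.093 (52 ten-spot probes), and its sign depended on the scaling, since it was 0.05 with spike-in scaling.

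The members with chitinase activity were both dim. Chia1, the acidic mammalian chitinase of stomach and lung, had an intensity of 7.35 untreated and 12.3 with IL-4. Chit1, chitotriosidase, the chitinase of human macrophages, had 6.66 and 6.39. Neither was well above background on either array, so these arrays give no direction for either of them.

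How close the dim probes came to background was read from 153 negative control spots on each array, whose sequences should bind no mouse transcript. Without background subtraction, the median pixel of these spots had a median of 57.0 on both arrays, and the highest control spot read 82.0 untreated and 80.5 with IL-4. Chia1 read 65.0 and 77.5, above 86.9% and 97.4% of the control spots. Chit1 read 67.0 and 70.0, above 91.5% and 90.2% of them. Both lay within the range of the control spots on both arrays, so a level too low to lift a spot above that range was not detectable.

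**Figure D2:**
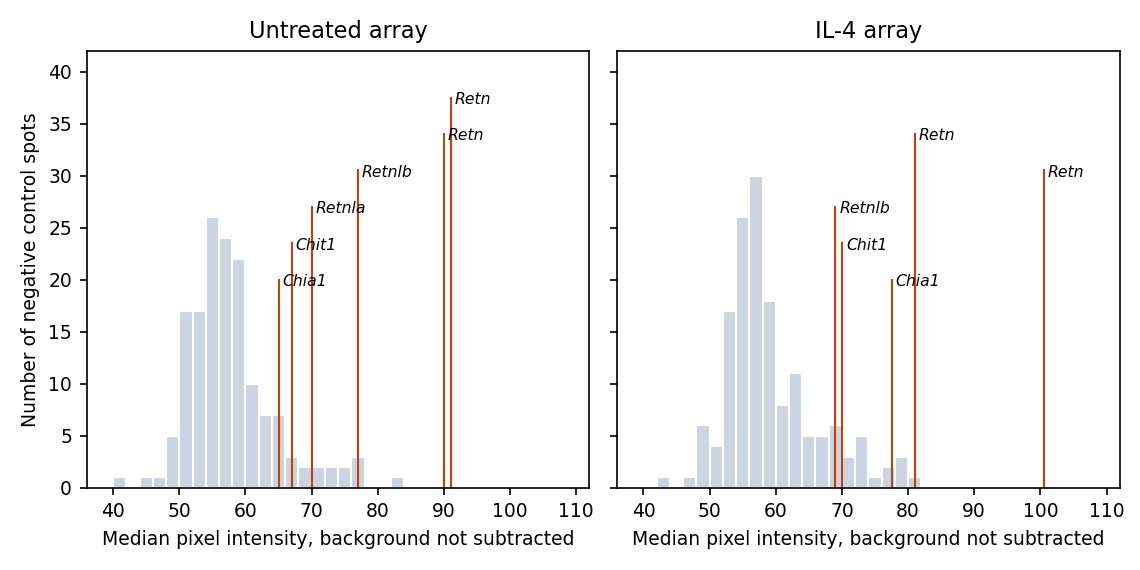
Histograms of the median pixel intensity of the 153 negative control spots on each array, with vertical lines at the dim member probes (line heights only separate the names). Chia1, Chit1, Retnlb and, on the untreated array, Retnla at 70.0 fall inside the control range, while both Retn probes lie above it, at 90.0 and 91.0 untreated and at 100.5 and 81.0 with IL-4.

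Retnla encodes RELMα, which alternatively activated macrophages, airway epithelium and adipose tissue secrete in mice. Its intensity was 6.99 in untreated BMDMs, with a software error of 99.6%, and 18633 after IL-4, with an error of 10%. Untreated BMDMs thus gave no signal well above background, and before background subtraction the untreated spot read 70.0, above 93.5% of the negative control spots and within their range. The signal with IL-4 was at least 595-fold higher, a bound of 9.22 on the log2 scale, computed against the lowest passing signal of the untreated array.

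Retnla held rank 1 of 19703 genes, and rank 1 under each of the 9 other scalings, background steps and processed values for which ranks were computed. Below it came Arg1, the arginase of alternatively activated macrophages, which was 216-fold higher (7.76 on the log2 scale, 84.9 against 19688), and Pdcd1lg2, the checkpoint ligand PD-L2, with a bound of 6.49. With normexp the Retnla difference was 7.51, and in the authors' processed values, which have no bound, it was 11.28.

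**Figure D3:**
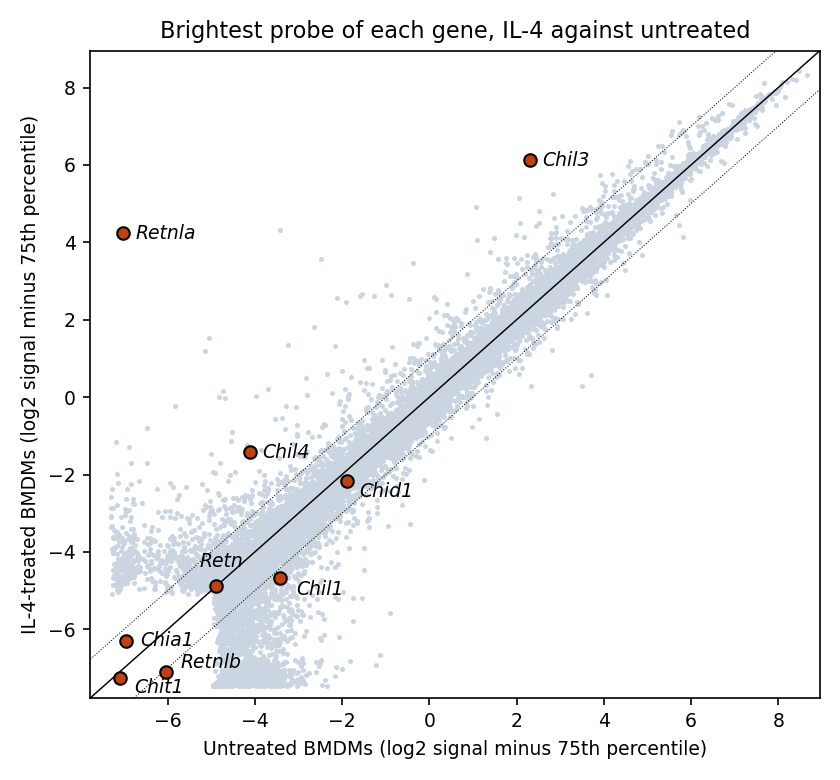
Log2 intensity minus the array's 75th percentile, untreated array on the x axis and IL-4 array on the y axis, for the brightest probe of each gene that passed on either array (grey) and the 9 member genes (orange) at their measured signals, with a solid line of equal signal and dotted lines at 2-fold. Retnla (-7.03 and 4.25), Chil3 (2.30 and 6.13) and Chil4 (-4.11 and -1.42) lie above the upper dotted line, and Chil1 (-3.43 and -4.68) below the lower line.

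The promoter of Retnla is shown beside that of Retnlg, its neighbour on chromosome 16, because the windows are alike and the signals were not. The windows lie at chr16:48842359-48842608 and chr16:48872358-48872607 on the plus strand of GRCm38.p6, with capitals for the same 3 patterns.
Retnla: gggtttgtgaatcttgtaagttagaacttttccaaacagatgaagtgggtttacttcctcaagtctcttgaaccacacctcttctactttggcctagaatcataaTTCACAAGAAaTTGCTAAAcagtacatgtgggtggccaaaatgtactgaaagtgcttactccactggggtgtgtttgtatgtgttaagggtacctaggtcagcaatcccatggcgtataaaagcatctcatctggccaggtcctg
Retnlg: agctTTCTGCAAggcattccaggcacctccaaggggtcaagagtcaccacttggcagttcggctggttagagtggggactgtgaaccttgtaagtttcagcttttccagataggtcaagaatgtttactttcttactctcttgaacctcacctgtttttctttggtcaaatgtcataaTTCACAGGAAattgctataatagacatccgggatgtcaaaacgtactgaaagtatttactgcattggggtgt

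The windows shared 138 of 175 aligned bases (78.9%, with 3 gap bases). Each held 1 match with the 4-base spacing of STAT6, TTCACAAGAA at 145 to 136 bases before the start of Retnla and TTCACAGGAA at 72 to 63 bases before that of Retnlg. In Retnla the C/EBP match TTGCTAAA followed at 134 to 127 bases without overlap, and in Retnlg the match TTCTGCAA stood at 246 to 239 bases. In the windows of Chil1, Chia1, Chit1, Chid1 and Retn none of the 3 patterns was found. RefSeq promoter windows were at hand for 8 of the 9 members, all but Retnlb.

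Retnlg encodes RELMγ, known from bone marrow and neutrophils. It read 92.5 without IL-4 and 52.0 with it, both well above background. The difference was -0.93 with a spot SD of 0.21, under the 2-fold limit. It ranged from -0.99 to -0.61 over all scalings and background steps, while that of Retnla was above 7 in all of them.

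Retnlb, the goblet cell protein RELMβ, had an intensity of 13.9 untreated and 7.14 with IL-4. Neither was well above background, and before background subtraction the spots read 77.0 and 69.0, within the range of the negative control spots.

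Retn encodes resistin, a product of adipocytes in mice. Its brighter probe read 31.1 in untreated BMDMs, not well above background, and 33.2 after IL-4, where it just passed. Its other probe read 28.3 and 20.2, not well above background on either. Before background subtraction the brighter probe read 90.0 and 100.5, above every negative control spot, and the other 91.0 and 81.0. No fold is given for either probe.

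The positions of the genes allow members to be set beside their neighbours. In the RefSeq gene order of chromosome 3, the protein-coding genes of the chitinase cluster run Ovgp1, Pifo, Chil5, Chia1, Chil3, Chil4 and Chil6. Chil3 and Chil4 stand next to each other, and none of the other measured genes of the row was 2-fold changed. Ovgp1, an oviduct protein of the chitinase family, differed by -0.05 and Pifo, a cilium gene, by 0.02. Chia1 and Chil6 were dim on both arrays, and no probe was matched to Chil5.

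On chromosome 16 the order is Retnlb, Retnla and Retnlg. Retnla was at least 595-fold higher between a gene that was dim on both arrays and a gene at -0.93. On chromosome 1, Chit1 and Chil1 are separated by 1 noncoding gene, with Chit1 dim on both arrays and Chil1 lower with IL-4.

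**Figure D4:**
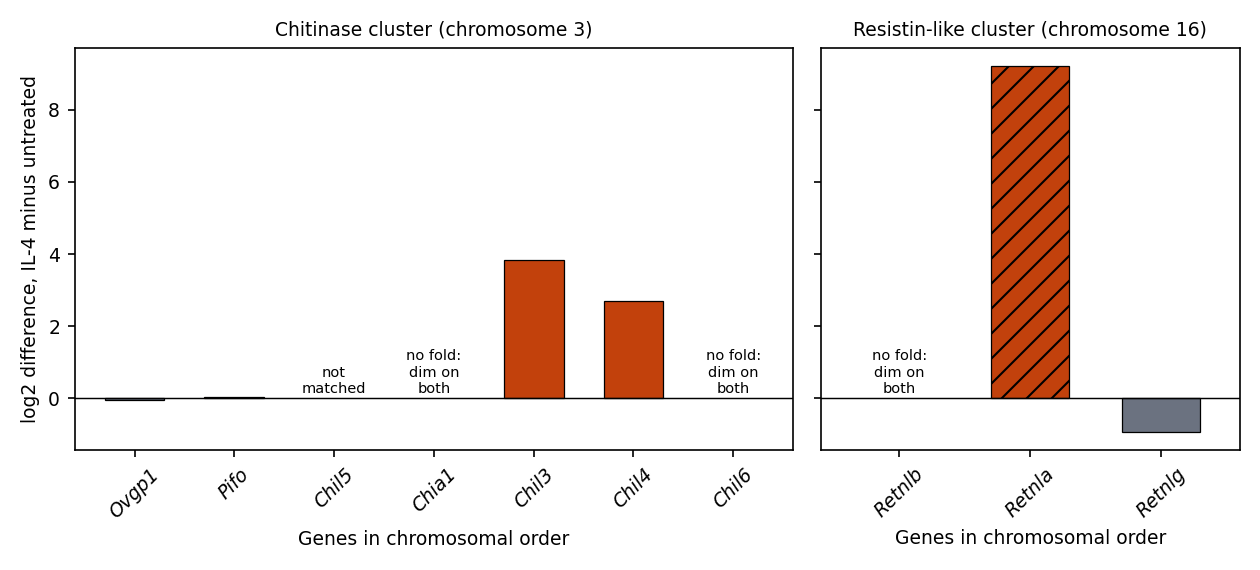
Log2 difference, IL-4 minus untreated, of the protein-coding genes in the chitinase cluster and the resistin-like cluster, in chromosomal order and not to scale, with a hatched bar for a bound and no bar where a gene was dim on both arrays or not matched. Chil3 (3.83) and Chil4 (2.68) stand between Chia1 and Chil6 without bars, and Retnla (at least 9.22) beside Retnlg (-0.93).

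The other genes of both families were few. Of 5 such genes (Chil5, Chil6, Ctbs, Ovgp1 and Retnlg), 4 were on the array, 3 were well above background on both arrays, and none was 2-fold changed in either direction. Their median difference was -0.05, against -0.01 over all 17242 genes that passed on both arrays. Ctbs, the lysosomal chitobiase that trims sugar ends left by chitinases, differed by 0.11.

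The proteins reported to bind the members were measured through a list of 10 genes, of which 8 were well above background on either array and 7 on both. The median difference of these 7 was 0.05. Il13ra2, reported as a receptor of the Chil1 protein, was the 1 gene at least 2-fold changed. It read 6.27 in untreated BMDMs, not well above background, and 438 after IL-4, at least 14.0-fold higher. With normexp its log2 difference was 2.50 in place of 3.81. Its reported partner Tmem219 differed by 0.05. Il13ra2 had a signal on the IL-4 array, where Chil1 was not well above background. Before background subtraction the Chil1 spot there read 88.0, above every negative control spot.

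Cd44, another reported Chil1 receptor, differed by 0.65 (9108 against 15263) and the heparan sulphate carrier Sdc1 by -0.38. Of the proteins reported to bind resistin, Tlr4 differed by 0.52, Cap1 by -0.10 and Dcn by -0.14, while Ror1 was dim on both arrays. Ptgdr2, a prostaglandin receptor reported for Chil1, was dim on both, and the galectin gene Lgals3 differed by 0.05. Cd44 and Tlr4 differed by less than 2-fold, and their spot SDs of 0.046 and 0.058 do not cover the spread between cultures. Cd44 was 0.48 with the median over its probes and 0.97 with spike-in scaling. Tlr4 was 0.47 with the percentile over probes that passed on both arrays and 0.84 with spike-in scaling.

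Of 4 genes listed for sensing chitin, 3 were on the array and 2 well above background on both. Nod2, a cytosolic sensor of bacterial wall fragments that is also reported to take part in chitin responses, read 104 and 53.1, a difference of -1.07 with a spot SD of 0.21. It was the 1 gene of the list past 2-fold, a call that was lost with no scaling (-0.97), median scaling (-0.86), spike-in scaling (-0.75) and normexp (-0.85), among others. Tlr2 differed by -0.45, and by -0.13 with spike-in scaling.

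The 6 genes listed for breakdown of chitin and its fragments were all well above background on both arrays and none was 2-fold changed, with a median of -0.02. Lyz2, the macrophage lysozyme, which cuts bacterial walls and weakly chitin, differed by -0.70 (98702 against 64890). Hexa, a lysosomal hexosaminidase subunit, differed by -0.23 and Nagk, which phosphorylates the freed sugar, by 0.27.

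The route from the IL-4 receptor to STAT6, which drives Chil3 and Retnla in mice, was listed together with cofactors and the feedback inhibitor Socs1. The list held 14 genes, all well above background on at least 1 array. At least 2-fold higher were 5 and none was lower, with a median of 0.13 over the 13 genes on both arrays. Irf4, a transcription factor of alternative activation, read 35.4, not well above background, and 970 with IL-4. Its difference against that dim signal was 4.68, and 2.99 with normexp. Socs1, the feedback inhibitor of cytokine signalling, read 242 and 5376, a difference of 4.37. Of the listed Janus kinases, Jak2 differed by 1.18, while Jak1 differed by 0.07, Jak3 by -0.32 and Tyk2 by -0.25. The transcription factors Pparg and Klf4 differed by 1.09 and 1.03. Klf4 was under 2-fold (0.98) with the percentile taken over probes that passed on both arrays.

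The receptor genes and the factors themselves moved less. Il4ra differed by 0.10, Il13ra1 by -0.61 and Stat6 by -0.29. Cebpb, whose product C/EBPβ is known to act at the Retnla promoter, differed by 0.54 (10026 against 15569) with a spot SD of 0.045.

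Among the 9 other markers of alternative activation, 7 were well above background on both arrays, 6 were at least 2-fold higher and none was lower. Their median was 3.90, close to the 3.83 of Chil3. Arg1 (7.76), Il4i1 (6.04), an amino acid oxidase, and Ccl24 (4.90), an eosinophil-attracting chemokine, differed more than Chil3 did, although with normexp Ccl24 was at 3.26 and Chil3 at 3.85. Clec10a (3.90), a galactose lectin, was nearest to it, with a spot SD of 0.058. Mrc1 (2.42), the mannose receptor, and Ccl17 (2.32), a chemokine of T helper cells, differed less than Chil4, an order that turned with normexp, where they were at 2.44 and 1.71 and Chil4 at 1.56. Tgm2 (0.81) was under 2-fold, but past it with median scaling (1.03) and spike-in scaling (1.13). Ccl22 and Cd209a were dim on both arrays. These markers are known from the same kind of treatment, so their count is a description.

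The labelled cell type was checked against its markers. Of 8 macrophage markers, 7 were on the array, and all 7 were well above background on both arrays, with summed intensities of 296935 untreated and 273913 with IL-4. Adgre1 (F4/80) differed by 0.17 and Csf1r by 0.09. Lower by at least 2-fold were Cd14 (-1.42), Fcgr1 (-1.23) and Mertk (-1.14), and the median was -0.71. With spike-in scaling Cd14 alone of these stayed past 2-fold, at -1.10.

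Other cells of marrow or tissue can make several members, so their markers were read too. Per the methods, flow cytometry for CD11b and F4/80 found such BMDM cultures to be nearly pure. In RNA of a whole culture, fewer cells of a type and less RNA per cell cannot be told apart. Neutrophils and their precursors are known to carry Chil3 and Retnlg. All 9 neutrophil markers on the array, of 10 listed, were well above background on both arrays, with summed intensities of 40709 and 38569. Their differences ran from -0.80 (Ngp, a granule protein) to 0.30 (Mpo, myeloperoxidase), with a median of -0.23, and none was 2-fold changed. S100a8 read 7266 and 6909. Chil3, at 3.83, lay outside the range of these markers and Retnlg, at -0.93, just below it, and the part of such cells in either signal was not tested.

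Eosinophil markers were present in part, with 3 of 5 well above background on both arrays, summed intensities of 953 and 1040 and a median of 0.28. Most of the sum came from Siglecf (772 and 817), which differed by -0.02. Prg2 (79.6 and 110) and Ccr3 (70.4 and 91.4) were faint and differed by 0.37 and 0.28. The defining granule gene Epx and Il5ra were dim on both. Of the basophil and mast cell markers, 3 of 5 had a signal on at least 1 array, with summed intensities of 349 and 198. Cpa3 was well above background on the untreated array only (91.2 and 6.37, at least 3.51-fold lower, a log2 bound of -1.81 that was -1.03 with normexp), and Fcer1a and Ms4a2 were dim on both. Mcpt8 (170 and 109) and Kit (75.1 and 69.8) passed on both arrays and were under 2-fold, at -0.74 and -0.20.

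Adipocytes are the usual source of resistin in mice. Of 5 adipocyte markers, 3 had a signal on at least 1 array, with summed intensities of 8344 and 9362, most of it from Fabp4, which macrophages also express and which differed by 0.04. Adipoq (adiponectin) read 203 and 384, a difference of 0.82 that was 1.04 with median scaling and 1.14 with spike-in scaling. Lep and Cidec were dim on both arrays. Their part in the faint Retn signal was not tested.

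Airway and gut epithelium make Retnla, Retnlb and Chia1. Of 6 epithelial and goblet cell markers, 5 were on the array and 4 had a signal on at least 1 array, with summed intensities of 410 and 810. Krt18, a keratin, read 39.9, not well above background, and 524 with IL-4, which was 12.2-fold higher against that dim signal. Its log2 difference was 3.61, and 1.97 with normexp. Epcam and Tff3 were well above background on the untreated array only, Krt8 was dim on both, and Krt19 differed by -0.23. The part of such cells in the Retnla signal was not tested. Of 4 lymphocyte markers, 2 had a signal on at least 1 array, with summed intensities of 430 and 322, and Cd79a was dim on both.

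The members' differences were also read under other scalings. The 75th percentile was 9.84 (log2) untreated and 9.94 with IL-4, and 59.8% and 57.4% of gene spots were well above background. Over the scalings tried, Chil3 ranged from 3.75 to 4.15, Chil4 from 2.63 to 3.00, Retnla from 9.16 to 9.54, Chil1 from -1.30 to -0.93 and Chid1 from -0.32 to 0.05. Of all genes at least 2-fold changed, 39.0% were higher with the 75th percentile and 34.0% to 69.0% over the scalings, the highest with spike-in scaling. Median scaling and spike-in scaling moved the median difference of the genes that passed on both arrays from -0.01 to 0.20 and 0.31, a shift that every gene shares.

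**Figure D5:**
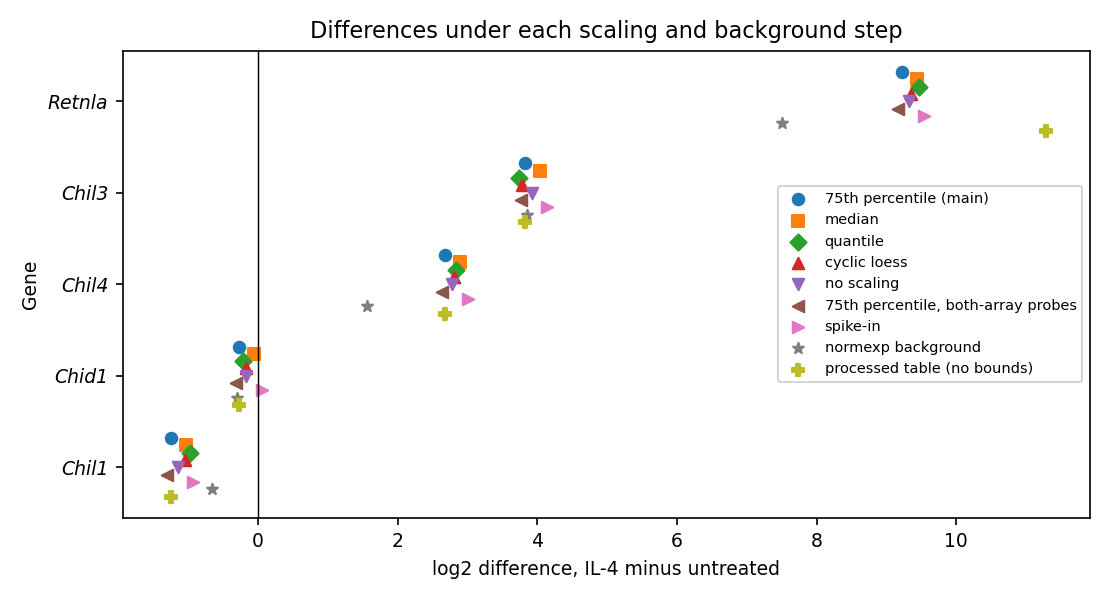
Log2 difference, IL-4 minus untreated, of the 5 members with a difference under 9 settings (markers), namely scalings, a background step and the authors' processed values. Retnla, Chil3 and Chil4 stay at 1.56 or higher on the log2 axis under all of them, Chil1 stays left of 0, and Chid1 lies on both sides of 0.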

How the data were processed

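Total RNA of untreated and IL-4-treated BMDMs was labelled with Cy3 and set on 1 single-colour Agilent mouse array each. The authors extracted the scans with Feature Extraction 10.10.1.1 at default settings, which gave the deposited intensity of each spot, with background and spatial trend removed but arrays not brought to a common scale. The authors further deposited processed log2 values (median 0.161 untreated and 0.0160 with IL-4) whose tool and scaling are not given in the sources used here. Their differences between arrays run in the same direction as those of the scanner intensity, but the baseline each probe was centred on is unknown, and they were used as an alternative only.

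Spots were averaged by probe on the log2 scale, and each array was scaled to its 75th percentile. Control spots and spots marked as outliers were left out, and no gene spot was saturated. Genes were named through the RefSeq accession of the probe in a RefSeq gene table (27229 of the 39424 probes kept, 20656 symbols), and a gene was read from its brightest probe. The design of the array uses mm9 and the RefSeq table and promoter windows are on GRCm38.p6, so no coordinates were taken from one to the other. Both arrays lay on 1 slide with 1 scan, so array position and condition cannot be told apart. Having 1 array per condition limits the precision.

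The text names all members, the genes of the fixed lists that were at least 2-fold changed or bear on a member, and, for each member at least 2-fold changed, the nearest named genes above and below it in the order of differences. Members and lists were chosen with earlier results of these data known. Scripts were tested on simulated data. Python 3.11.15, numpy 2.4.6, pandas 2.3.3, Biopython 1.88, R 4.3.3 and limma 3.58.1 were used.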

Additional observations from a re-analysis of the deposited data

How the results depend on the processing

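No paired analysis was possible because there is a single array for either condition, and for the same reason no replicate was left out. Differences of dim probes depend on the background step, and bounds on the lowest signal well above background.

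Chil3, 3.83 in the report, was 4.04 with median scaling, 3.75 with quantile normalization, 3.92 with no scaling, 3.77 with the percentile over probes that passed on both arrays and 4.15 with spike-in scaling. Retnla, 9.22, was 9.43 with median scaling, 9.46 with quantile normalization, 9.35 with cyclic loess, 9.32 with no scaling, 9.54 with spike-in scaling, 7.51 with normexp and 11.28 in the authors' processed values, which set no bound. No difference of either reversed. The members at least 2-fold higher were 3 in every setting except 2 with genes on both arrays only, which leaves out Retnla by construction. The members at least 2-fold lower were 0 with quantile normalization, spike-in scaling, normexp, genes on both arrays only and thresholds of 1.5 and 2 (log2), and 2 with no filter on dim probes.

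Over all genes, 564 were at least 2-fold higher, against 1011 with spike-in scaling, 297 with normexp, 848 in the processed values, 363 on both arrays only, 1389 with no filter, and 228 and 116 at thresholds of 1.5 and 2. At least 2-fold lower were 883, against 564 with median scaling, 532 with quantile normalization, 454 with spike-in scaling, 268 with normexp, 1645 in the processed values, 270 on both arrays only, 4075 with no filter, and 302 and 89 at the stricter thresholds. Where no construction shows it, the cause was not tested. The share of changed genes that were higher was 59.5% with median scaling, 60.1% with quantile normalization, 52.3% with cyclic loess, 48.8% with no scaling, 52.6% with normexp and 34.0% in the processed values. Of 72 other named genes with a difference, 48 kept their sign in every setting, and so did all 20 of those at least 2-fold changed.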
